A study of Homo sapiens with 6 samples.

Results

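The genes that bring glucose into the cell and phosphorylate it were followed in HepG2, an established human liver cancer cell line, through 9 members among the 59608 genes of the count table. The members were chosen by name, with earlier results of these data known. They were the transporters SLC2A1, SLC2A2, SLC2A3, SLC2A8 and SLC2A10, the hexokinases HK1, HK2 and HKDC1, and GCKR, a regulatory protein of hepatic glucose phosphorylation. RNA-seq was performed in 6 libraries of cells in which endogenous VEZF1, a zinc finger transcription factor, had been removed with a lentiviral sgRNA. The protein put back was VEZF1-WT in 3 libraries. In the other 3 it was VEZF1-2A, a mutant in which a pair of serines that can carry O-linked N-acetylglucosamine (O-GlcNAc) is replaced by alanine. The paper lists further potential sites on VEZF1 and reports that this mutant carries much less O-GlcNAc. Both groups thus carried the knockout and differed in the re-expressed form, and cells without any VEZF1 were not analysed here. In Huh7 cells, the paper also reports a shorter half-life and more ubiquitination for the mutant protein. The groups may therefore also differ in the amount of VEZF1 protein, which RNA does not show. Whether the knockout cells were 1 clone or a pool, and whether the libraries of a group came from separate cultures, was not stated, so that p-values measure the spread between these libraries, which may be technical.

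Glucose crosses the plasma membrane through the SLC2A (GLUT) proteins down its gradient, and hexokinases then trap it as glucose 6-phosphate. This product enters glycolysis, glycogen synthesis, the pentose phosphate pathway or, through fructose 6-phosphate, the hexosamine pathway whose end product UDP-GlcNAc is the donor for O-GlcNAc. Adult hepatocytes take up glucose mainly through SLC2A2, whereas many liver cancer cells rely on SLC2A1 and HK2.

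The total count ranged from 28756765 to 57199396 per library. All 9 hepatocyte markers examined, among them ALB, AFP and APOB, were detected, with a summed level of 16023 to 20405 CPM (counts scaled to the library's total) in VEZF1-WT and 15327 to 19811 CPM in VEZF1-2A. The summed level of 10 markers of other liver cell types was 132 to 195 CPM in VEZF1-WT and 136 to 209 CPM in VEZF1-2A, of which CD68, a lysosomal protein that is not confined to macrophages, made 112 to 185 CPM. The leukocyte markers PTPRC and CD3E and the fibroblast markers COL1A2, COL3A1 and DCN stayed at or below 0.142 CPM in every library. The other 4 were higher, with LYVE1 at 15.6 to 19.9 CPM, PECAM1 at 1.597 to 3.706 CPM, COL1A1 at 0.674 to 1.75 CPM and VWF at 0.225 to 0.799 CPM. The libraries numbered 3 of both groups stood apart from the rest, with AFP at 3643 and 3482 CPM against 1763 to 2065 CPM in the other 4. VEZF1 itself, counted together from any remaining endogenous and the re-expressed transcript, was at 48.3 ± 9.95 CPM (SD, n = 3) in VEZF1-WT and 44.5 ± 5.06 CPM (n = 3) in VEZF1-2A, with overlapping groups (log2 fold change 0.12, unadjusted p = 0.407, edgeR).

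To show the DNA in front of the members on which the results turn, the 250 bases before the annotated starts of HK2, HKDC1 and SLC2A1 are given from RefSeq (GRCh38.p14), on the strand of the gene. HK2 has a pair of annotated starts. Capitals mark the letters ACGTG and GCGTG, the core of the element bound by hypoxia-inducible factor 1 (HIF-1), and runs of GGGGGGG, of the kind that VEZF1 is known to bind, each on either strand.
HK2, upstream of its first start, chr2:74833877-74834126 (+): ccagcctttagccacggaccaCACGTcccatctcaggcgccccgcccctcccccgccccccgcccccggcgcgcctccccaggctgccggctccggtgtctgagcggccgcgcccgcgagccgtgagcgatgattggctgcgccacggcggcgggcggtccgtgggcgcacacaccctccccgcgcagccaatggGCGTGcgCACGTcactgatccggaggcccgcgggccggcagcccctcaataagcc
HK2, upstream of its second start, chr2:74834920-74835169 (+): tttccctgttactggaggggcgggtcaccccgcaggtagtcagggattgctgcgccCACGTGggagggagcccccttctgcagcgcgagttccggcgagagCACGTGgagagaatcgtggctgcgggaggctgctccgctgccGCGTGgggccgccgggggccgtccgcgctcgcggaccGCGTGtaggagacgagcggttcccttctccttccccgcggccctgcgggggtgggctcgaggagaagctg
HKDC1, chr10:69220082-69220331 (+): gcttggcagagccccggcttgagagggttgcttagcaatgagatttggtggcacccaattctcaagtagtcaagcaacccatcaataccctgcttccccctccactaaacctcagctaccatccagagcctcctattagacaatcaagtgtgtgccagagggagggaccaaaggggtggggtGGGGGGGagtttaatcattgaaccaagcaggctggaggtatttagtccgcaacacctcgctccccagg
SLC2A1, chr1:42958869-42959118 (-): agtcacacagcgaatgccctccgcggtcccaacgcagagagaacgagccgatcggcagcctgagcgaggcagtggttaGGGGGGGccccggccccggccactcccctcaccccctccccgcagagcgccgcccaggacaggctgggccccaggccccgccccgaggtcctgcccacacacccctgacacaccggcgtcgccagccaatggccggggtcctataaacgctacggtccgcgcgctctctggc
Upstream of the first HK2 start, the core ACGTG lay 229 and 48 bases before the start, both times on the other strand. The variant GCGTG lay 55 bases before it. Upstream of the second, the palindrome CACGTG, which is also an E-box, lay 194 and 149 bases before the start and overlaps ACGTG on both strands. Runs of 7 G lay 68 bases before the HKDC1 start and 172 bases before the SLC2A1 start.

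The same letters were searched in the windows from 250 bases before to 50 bases after each start of 8 of the 9 members, in all 15 windows, of which 7 belong to HK1 and 2 to HK2. SLC2A3 was not among the members matched. ACGTG was in 3 of 15 windows, those of HK2 and SLC2A10, against 21.4% of all 35116 promoter windows of the same length. GCGTG was in 6 of 15 windows, of HK1, HK2, HKDC1 and SLC2A1, against 36.5% of all windows. CACGTG was in 1 of 15, against 7.26%, and GGGGGGG in 3 of 15, of HKDC1, SLC2A1 and SLC2A10, against 5.10%. A match is a string of letters and not a bound site.

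SLC2A1 led the members per unit of exon length. Its level was 146 ± 15.3 TPM (CPM per exon length, rescaled to a fixed sum; SD over all 6 libraries), 2.68 times that of HKDC1, the next in order, at 54.5 ± 13.9 TPM. SLC2A3 at 28.2 ± 4.43 TPM and HK2 at 26.5 ± 3.16 TPM followed and could not be ordered, since SLC2A3 was the higher in 4 of 6 libraries. A gap of 3.83 times separated HK2 from SLC2A8 at 6.92 ± 0.322 TPM. SLC2A2, the transporter of adult hepatocytes, reached 3.80 ± 0.401 TPM, and its range overlapped that of GCKR at 3.35 ± 0.571 TPM, which in turn overlapped HK1 at 3.33 ± 0.397 TPM. SLC2A10 was the lowest at 1.54 ± 0.262 TPM, below HK1 in 6 of 6 libraries. Every other pair of neighbours also kept its order in 6 of 6 libraries, without overlap.

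In the comparison of VEZF1-WT with VEZF1-2A, which cannot separate the loss of O-GlcNAc sites from a change in VEZF1 protein amount, no member passed the test across all genes. All 9 were among the 19111 genes tested by edgeR's quasi-likelihood test, and each had an adjusted p of 0.9996. Of all genes tested, 0 (0.0%) had an adjusted p under 0.05, while 3 did by DESeq2 and 0 by limma voom, with no member among them. At an unadjusted p under 0.05, 2 members were lower in VEZF1-WT, HK2 and SLC2A3, and none was higher, against 2.13% of all genes tested (408 genes), of which 1.3% were lower and 0.832% higher in VEZF1-WT. The same 2 members were the ones whose groups did not overlap, against 7.36% of all genes, 3.86% lower and 3.5% higher in VEZF1-WT. Because earlier results of these data were known when the members were chosen, setting them beside these shares is not a test. With 3 libraries in each group, the exact permutation test, two-sided, cannot give a p below 0.1. The median log2 fold change (VEZF1-WT over VEZF1-2A) was -0.07 over the members, 6 below and 3 above 0, and 0.00 over all genes tested. In bulk RNA, fewer cells that express a gene and less RNA per cell cannot be told apart.

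**Figure D1:**
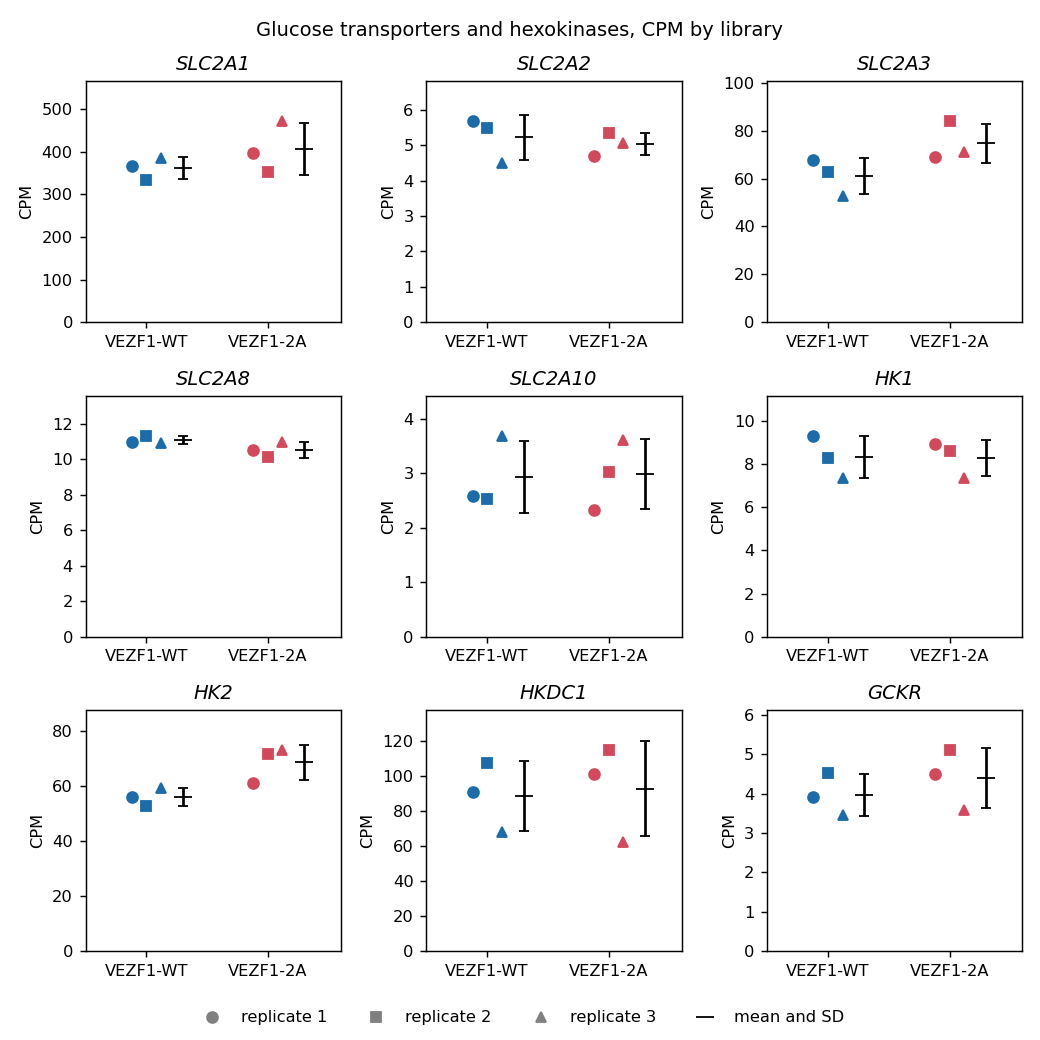
CPM of each member in every library (y axes, linear, from 0), with VEZF1-WT in blue, VEZF1-2A in red, the shape giving the replicate number, and the bar giving the mean and SD of 3 libraries. The groups are apart for SLC2A3 and HK2, and the libraries numbered 3 are the lowest of both groups for HKDC1, HK1 and GCKR.

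SLC2A1 (GLUT1), the basal high-affinity transporter of most proliferating cells, lies on chromosome 1 from 42925353 to 42958893 on the minus strand (GRCh38). Its level was 367, 334 and 385 CPM in the VEZF1-WT libraries and 398, 352 and 472 CPM in the VEZF1-2A libraries. The highest value was in the third VEZF1-2A library and the other 5 interleaved. The means were 362 ± 26.0 and 407 ± 60.5 CPM (log2 fold change -0.17, SE 0.098, 95% interval -0.39 to 0.05, unadjusted p = 0.115, exact permutation p = 0.4). The third VEZF1-2A library carried much of this difference, which was -0.05 (unadjusted p = 0.523) without it and, without the second VEZF1-2A library, -0.26 (unadjusted p = 0.0176).

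SLC2A3 (GLUT3), the high-affinity transporter best known from neurons, lies on chromosome 12 from 7919230 to 7936187 on the minus strand. It was at 67.7, 62.8 and 52.9 CPM in VEZF1-WT and at 68.9, 83.9 and 71.1 CPM in VEZF1-2A. All VEZF1-2A libraries were above all VEZF1-WT libraries, the closest pair being both libraries numbered 1. The means were 61.1 ± 7.55 and 74.6 ± 8.13 CPM, with VEZF1-2A 22.3% above VEZF1-WT (log2 fold change -0.29, SE 0.101, 95% interval -0.51 to -0.07, unadjusted p = 0.0158, exact permutation p = 0.1). Without the third VEZF1-WT library the difference was -0.20 (unadjusted p = 0.06), and without the second VEZF1-2A library -0.20 (unadjusted p = 0.0871). Of the 50-base stretches of its annotated transcripts, 16.0% also occur in other genes, nearly all of them in the paralog SLC2A14, so that reads may be split between the genes. SLC2A14 was at 5.67 ± 0.709 and 7.0 ± 1.05 CPM with overlapping groups (log2 fold change -0.32, unadjusted p = 0.0505), and the sum of both genes differed by -0.29 (unadjusted p = 0.0155).

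The other member transporters were at much lower levels and their groups overlapped. SLC2A2 (GLUT2), the low-affinity transporter of hepatocytes and beta cells on chromosome 3 from 170996347 to 171026743, was at 5.68, 5.50 and 4.49 CPM in VEZF1-WT and 4.70, 5.35 and 5.07 CPM in VEZF1-2A (log2 fold change 0.05, 95% interval -0.25 to 0.34, unadjusted p = 0.737). The interval leaves room for differences in either direction. SLC2A8, an intracellular transporter on chromosome 9 from 127397138 to 127408424, was the steadiest member, with a coefficient of variation of 3.95% over the 6 libraries. Its means were 11.1 ± 0.223 and 10.5 ± 0.428 CPM (log2 fold change 0.07, 95% interval -0.12 to 0.26, unadjusted p = 0.421). SLC2A10 (GLUT10), whose loss causes arterial tortuosity, lies on chromosome 20 from 46709649 to 46736347 and had 68 to 208 counts per library. It was at 2.93 ± 0.658 and 2.99 ± 0.644 CPM (log2 fold change -0.02, 95% interval -0.49 to 0.44, unadjusted p = 0.912) and was highest in the libraries numbered 3 of both groups.

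HK2, the hexokinase of muscle, fat and many tumours that docks on the mitochondrial outer membrane, gave the smallest p of the members. It lies on chromosome 2 from 74834127 to 74893359 on the plus strand. The VEZF1-WT libraries had 56.0, 52.9 and 59.2 CPM, the VEZF1-2A libraries 61.2, 71.6 and 73.0 CPM. The groups did not overlap, and the first VEZF1-2A library came closest to the VEZF1-WT libraries. The means were 56.0 ± 3.16 and 68.6 ± 6.42 CPM, with VEZF1-2A 22.4% above VEZF1-WT (log2 fold change -0.29, SE 0.078, 95% interval -0.47 to -0.12, unadjusted p = 0.00362, adjusted p = 0.9996, exact permutation p = 0.1). The HIF-1 core letters stand in both HK2 sequences printed above, but ACGTG is in 21.4% and GCGTG in 36.5% of all promoter windows. They are also in windows of HK1, HKDC1, SLC2A1 and SLC2A10, whose groups overlapped. Any role of these letters was not tested. HK2 transcripts share 8.16% of their 50-base stretches with the pseudogene HK2P1, which was at 0.319 to 0.898 CPM, and the sum of both differed by -0.29 (unadjusted p = 0.00355).

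HKDC1, the hexokinase found most recently and known from intestine and from liver cancer, lies next to HK1 on chromosome 10, from 69220332 to 69267552 on the plus strand. It was at 91.0, 108 and 67.9 CPM in VEZF1-WT and at 101, 115 and 62.6 CPM in VEZF1-2A. The second library was the highest and the third the lowest of both groups, and the groups overlapped throughout. The means were 88.8 ± 19.96 and 92.9 ± 27.1 CPM (log2 fold change -0.07, SE 0.207, 95% interval -0.53 to 0.39, unadjusted p = 0.748, exact permutation p = 0.9). With a coefficient of variation of 23.6% over the 6 libraries it was the most variable member. Without the libraries numbered 3 of both groups, a comparison added after the data were seen, the difference was -0.13 (SE 0.083, unadjusted p = 0.146). HKDC1 shares exon positions with AL596223.2 on the other strand, which had means of 8.91 and 8.94 CPM. Reads of both cannot be told apart unless strand was used in counting, which was not stated.

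HK1, the housekeeping hexokinase, lies from 69269984 to 69401884 on the same strand of chromosome 10. It was at 9.32, 8.31 and 7.36 CPM in VEZF1-WT and 8.92, 8.59 and 7.36 CPM in VEZF1-2A. The libraries numbered 3 were equally low in both groups and the ranges lay over each other (log2 fold change 0.01, SE 0.122, 95% interval -0.26 to 0.28, unadjusted p = 0.965). GCKR, on chromosome 2 from 27496839 to 27523684, was at 3.91, 4.52 and 3.46 CPM in VEZF1-WT and 4.49, 5.10 and 3.59 CPM in VEZF1-2A. It was again lowest in the third library of each group (log2 fold change -0.16, SE 0.164, 95% interval -0.52 to 0.20, unadjusted p = 0.352).

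Within the SLC2A family, 13 of 14 genes in the table were detected, and SLC2A1 made most of the family's TPM. Its share was 70.2% ± 1.88 in VEZF1-WT and 70.5% ± 4.01 in VEZF1-2A (n = 3 each, exact permutation p = 1), with a range of 65.9% to 73.5%. SLC2A3 made 13.0% ± 1.86 and 14.3% ± 2.60, and SLC2A2 1.97% ± 0.298 and 1.71% ± 0.211, with overlapping groups. SLC2A8 made 3.62% ± 0.257 in VEZF1-WT and 3.08% ± 0.186 in VEZF1-2A, without overlap (exact permutation p = 0.1, the smallest possible). Its CPM overlapped between the groups. The share of SLC2A13 did not overlap either, with 0.371% ± 0.0387 and 0.295% ± 0.0277 (exact permutation p = 0.1), and the shares of the other family genes overlapped. The TPM of the family added up to 203, 190 and 198 in the VEZF1-WT libraries and to 215, 205 and 235 in the VEZF1-2A libraries. The VEZF1-2A sums were the higher, the closest pair being 203 and 205, and the difference was not tested. SLC2A1, whose own groups overlapped, made most of each sum. Of all genes tested, 7.36% had CPM that did not overlap between the groups. No such background was computed for shares or for summed TPM.

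Among the hexokinases, HKDC1 carried more TPM than HK2 in every library. In VEZF1-WT cells HKDC1 made 66.2%, 71.3% and 58.9% of the family, against 67.0%, 66.8% and 52.3% with VEZF1-2A. HK2 made 29.1%, 25.0% and 36.7% against 28.9%, 29.7% and 43.5%, in the same order of groups, with the largest share in the third library of each group. The mean HK2 share was 30.3% ± 5.94 against 34.1% ± 8.23 (difference -3.79 percentage points, exact permutation p = 0.6), and without the third VEZF1-2A library the difference was 0.957. HK1 made 4.18% ± 0.440 and 3.81% ± 0.405. HK3 stayed at or below 0.112% of the family in every library. The summed hexokinase TPM was 66.9 to 92.5 in VEZF1-WT and 68.5 to 103 in VEZF1-2A, lowest in the libraries numbered 3.

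The other genes of glucose entry and use gave few differences. Of 11 further transporter genes, 7 were tested, and 5 were below and 2 above 0 with none at an unadjusted p under 0.05 (median log2 fold change -0.04). They ran from SLC2A14 at -0.32 to SLC2A13, a proton-coupled inositol transporter, at 0.17. SLC2A7 was at 0 counts in all 6 libraries. Of 7 other glucose kinases, phosphatases and their partners, 3 were tested and none had an unadjusted p under 0.05. SLC37A4, the glucose 6-phosphate carrier of the endoplasmic reticulum, was at -0.15 and the ubiquitous phosphatase gene G6PC3 at 0.05. The liver phosphatase gene G6PC and the islet gene G6PC2 had 0 counts in every library, which leaves room for a very low level.

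Of 7 genes that act next on glucose 6-phosphate or feed the hexosamine pathway, all were tested, 6 were below and 1 above 0, and none had an unadjusted p under 0.05. GFPT1, which encodes GFAT1, the first enzyme of the hexosamine pathway, was at 147 ± 10.9 CPM in VEZF1-WT and 142 ± 8.02 CPM in VEZF1-2A (log2 fold change 0.06, unadjusted p = 0.431). Its paralog GFPT2 had the lowest value of this list, -0.60, at a mean of 0.341 and 0.525 CPM (unadjusted p = 0.186). Of 12 regulators of these genes, 6 were below and 6 above 0 and none had an unadjusted p under 0.05 (median -0.01). They ran from ARRDC4, a glucose-responsive arrestin, at -0.27 to SREBF1, a regulator of lipogenesis, at 0.15. HIF1A was at 250 ± 22.6 and 256 ± 30.3 CPM.

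Since SLC2A1, SLC2A3 and HK2 are known targets of HIF-1, 8 other HIF-1 targets were set beside them. All 8 were below 0, with a median log2 fold change of -0.23 against 0.00 over all genes tested. The 5 markers of other liver cell types that were tested were also all below 0. Their median was -0.34, with none at an unadjusted p under 0.05. Of these, VWF, COL1A1 and PECAM1 stayed at or below 3.71 CPM, while CD68 was at -0.11 and LYVE1 at -0.02. Of 8 proliferation genes, 1 was below and 7 above 0, and of 12 regulators 6 were below and 6 above 0. The cause of the shift in the HIF-1 list was not tested. An unadjusted p under 0.05 was found for 3 of the 8 HIF-1 targets, each lower in VEZF1-WT, against 1.3% of all genes tested. The list was chosen with earlier results of these data known, so setting these shares side by side is not a test. PDK1, which restrains pyruvate entry into mitochondria, was at 7.75, 5.89 and 5.84 CPM in VEZF1-WT and at 7.27, 10.7 and 9.77 CPM in VEZF1-2A (-0.51, unadjusted p = 0.00943). The first VEZF1-2A library lay among the VEZF1-WT libraries. CA9, a carbonic anhydrase, was at 0.380, 0.393 and 0.319 CPM against 0.343, 1.25 and 0.694 CPM (-1.11, unadjusted p = 0.0299). EGLN3, a HIF prolyl hydroxylase, was at 0.549, 0.393 and 0.142 CPM against 0.549, 1.15 and 0.603 CPM (-1.14, unadjusted p = 0.0405). The groups overlapped for each of the 8. ANKRD37 was highest in the third VEZF1-2A library. PDK1, CA9 and EGLN3 were highest in the second VEZF1-2A library, and so were VEGFA, BNIP3, NDRG1 and ADM. The shift of the whole list may thus rest largely on the second VEZF1-2A library, and the list median without it was not computed. Without the second VEZF1-2A library PDK1 was at -0.39 (unadjusted p = 0.0547), CA9 at -0.53 (unadjusted p = 0.258) and EGLN3 at -0.70 (unadjusted p = 0.236). SLC2A3 also lost its unadjusted p under 0.05 (0.0871), while HK2 kept it (0.0193). Other omissions moved the 3 targets as well. Without the first VEZF1-2A library they were at -0.66, -1.43 and -1.32 (unadjusted p = 0.00129, 0.00402 and 0.0329). Without the third VEZF1-WT library PDK1 kept an unadjusted p under 0.05 (0.0344), while CA9 (0.08) and EGLN3 (0.133) did not. PDK1 and CA9 share exon positions with other annotated genes.

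**Figure D2:**
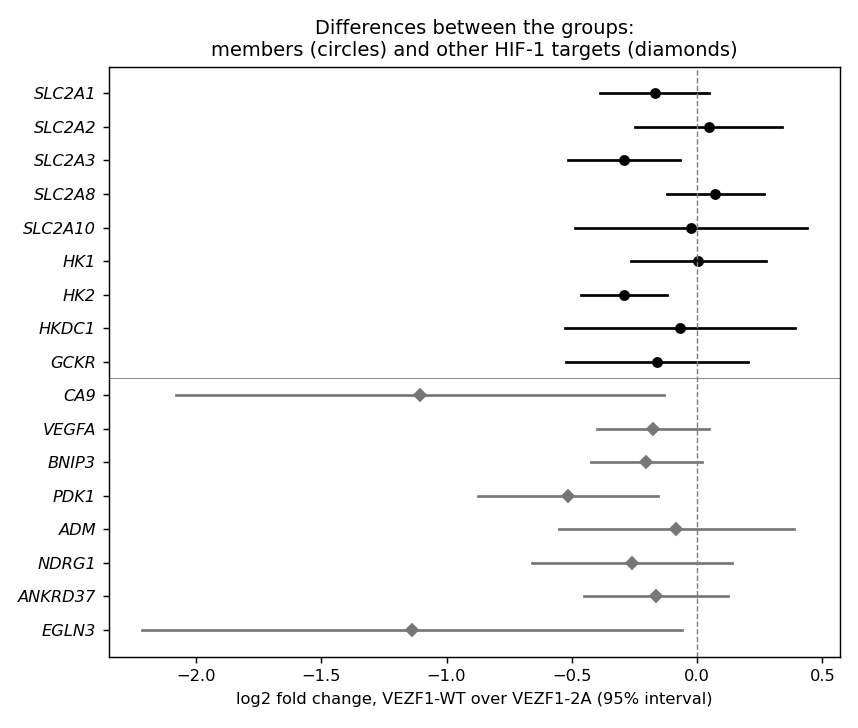
Log2 fold change of VEZF1-WT over VEZF1-2A (x axis) with its 95% interval for the 9 members (black circles) and 8 other HIF-1 targets (grey diamonds); the dashed line marks 0. The intervals of SLC2A3 and HK2 among the members, and of CA9, PDK1 and EGLN3 among the other targets, lie below 0, and no gene passed the adjusted threshold.

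The summed level of 8 proliferation genes was 1293 to 1650 CPM in VEZF1-WT and 1303 to 1687 CPM in VEZF1-2A, and 1 was below and 7 above 0 with none at an unadjusted p under 0.05. Among 8843 genes with a mean of at least 10 CPM, the genes whose log2 CPM followed SLC2A1 most closely over the 6 libraries were CCDC150 (Pearson r = 0.994), WDR89 (0.980) and the pseudogene RPL7P1 (0.978). For HKDC1 they were SPIRE1, KIDINS220 and F3 (0.996 each), and for GCKR they included AL390719.1 (0.993) and PARP3 (0.992). These values describe 6 points, of which the libraries numbered 3 stand apart, and are the highest of many.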

How the data were processed

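RNA of HepG2 cells was sequenced as mRNA libraries, 3 per group (VEZF1-WT and VEZF1-2A), grouped and numbered by their labels. The authors deposited raw read counts per gene, as whole numbers on GRCh38 (build per the labels); aligner, counter, annotation release and strand setting are not given in the sources used here. A broken entry of 5 lines (ANK2) was left out. Between 65.7% and 67.5% of counts from 11 to 100 were even, so counting errors of single reads were not used and halved counts were tried.

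Testing used edgeR 4.0.16 under R 4.3.3 (filterByExpr with minimum count 10 and minimum total 15, TMM, glmQLFit and glmQLFTest, group as the only covariate, prior count 0.125), with Benjamini-Hochberg adjustment over 19111 genes. CPM uses TMM-scaled totals, TPM the exon length in the table, and both include mitochondrial genes (7.94% to 8.55% of counts). Exact permutation tests used log2(CPM + 0.1), or the shares. Scripts were tested on simulated data. DESeq2 1.42.0, limma 3.58.1, other scalings and filters, the replicate number as a block and each library left out were the alternatives. Replicates of a group differed by more than counting noise (chi-square over degrees of freedom 3.74 to 15.0, on halved counts of genes above a minimum count).

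Members and lists were chosen with earlier results of these data known. Named genes are all members, the genes of each list with an unadjusted p under 0.05 and its lowest and highest log2 fold change, and the 3 genes most like the leading transporter, the leading hexokinase and GCKR by Pearson r. GFPT1, HIF1A, G6PC, G6PC2, SLC2A7, HK3, VEGFA, BNIP3, NDRG1, ANKRD37 and marker genes were named after their values were seen. Figures were drawn with matplotlib 3.10.9. ChIP-seq was not analysed here, and a few genes that the rule covers are not reported here.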

Additional observations from a re-analysis of the deposited data

How the results depend on the processing

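No member had an adjusted p under 0.05 in any setting. Over all genes, 0 were called in the reported fit and in each fit without 1 library, but 16 without the filter on low counts, 3 with DESeq2, 6 with the replicate number as a block and 4 without the libraries numbered 3 of both groups (chosen after seeing the data). Members with an unadjusted p under 0.05 numbered 2, with 1 to 2 when 1 library was left out and 3 without the filter on low counts, where SLC2A1 joined (unadjusted p = 0.016). HK2 kept an unadjusted p under 0.05 in all 17 alternative settings (log2 fold change -0.37 to -0.25), and SLC2A3 in 15 of 17 (-0.37 to -0.20). Leaving out 1 library moved SLC2A2 between -0.025 and 0.15, SLC2A10 between -0.23 and 0.13, HK1 between -0.088 and 0.090 and HKDC1 between -0.29 and 0.11. HK1 was -0.0028 with limma voom and -4.67e-05 with halved counts. The SLC2A1 share difference of -0.27 percentage points ranged from -2.55 to 1.23, and the HK2 share difference of -3.79 from -7.01 to 0.957. The cause of these shifts was not tested. With mitochondrial genes out of the denominator SLC2A1 was at 211 TPM, and the other members moved alike.

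The deviations of same-numbered libraries from their group means correlated with r = 0.0793, 0.144 and 0.362 for numbers 1, 2 and 3, so the numbers were not shown to pair the samples; the first VEZF1-WT library, the second VEZF1-2A library and both libraries numbered 3 correlated best with their own number, while the second VEZF1-WT and the first VEZF1-2A library correlated best with each other (r = 0.164). With the block, 825 genes against 408 had an unadjusted p under 0.05, and among members SLC2A1 (-0.16, p = 0.00519), SLC2A3 (-0.29, p = 0.000496) and HK2 (-0.29, p = 0.000149, adjusted p = 0.182, edgeR) did; the share differences were -0.27 (exact p = 1) and -3.79 (exact p = 0.5, the smallest possible being 0.25). Counting error matters most for SLC2A10, with 68 to 208 counts per library.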
